A study of Mus musculus with 8 samples.

Results

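The Nodal and activin signalling genes examined here are 8 mouse genes: the ligand genes Nodal, Gdf3, Inhba and Inhbb, the co-receptor gene Tdgf1, and the antagonist genes Lefty1, Lefty2 and Fst. They were taken by name, with every probe of each, and gave 9 of the 41174 probes and 8 of the 27590 genes on the array. Each was on the array with 1 probe, except Inhbb with 2. The series holds 8 total RNA samples, of which the 4 on an Agilent 1-colour array were used and the 4 Affymetrix samples were not analysed here.

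The 4 arrays, 1 per group, held 2 induced pluripotent stem cell preparations, embryonic stem cells and fibroblasts. PM2i-iPSC came from mouse embryonic fibroblasts (MEF) given purmorphamine combinations and then 2i/LIF. OM2i-iPSC came from MEF given oxysterol combinations and then 2i/LIF. ES were blastocyst-derived embryonic stem cells of the 129/Ola background, and MEF were embryonic fibroblasts for which no treatment is named. Whether they were the cells that the preparations started from is not stated. Purmorphamine and some oxysterols switch on Smoothened, the signal transducer of the Hedgehog pathway, and 2i/LIF combines inhibitors of MEK and GSK3 with the cytokine LIF. No transgene or mutant allele is named for any of these samples. The labels give a strain for ES only, they do not say which other agents the combinations held, and the medium of ES, the passage of any line and whether a sample was 1 clone or a pool were not found in the labels. With 1 array per group nothing below was tested against replicate error, and each difference describes these arrays.

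Nodal and the activins are ligands of the TGF-beta family that act through shared type I and type II receptors and through Smad2 and Smad3. Nodal and its relative Gdf3 need an EGF-CFC co-receptor such as Tdgf1 (Cripto), while activins do not. Lefty proteins block Nodal and its co-receptor and are themselves switched on by the pathway, which makes them both inhibitors and readouts of it, and follistatin, the product of Fst, binds activins. Mouse pluripotent cells transcribe Nodal, Tdgf1 and the Lefty genes, whereas fibroblasts are a known source of activin A, the dimer encoded by Inhba.

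The probes are shown because each gene rests on a single stretch of sequence, and because the Inhbb pair and the Lefty pair are compared below. They are 60-base oligonucleotides, printed 5′ to 3′ in lower case as the MEF file gives them, with positions on build mm7. For Nodal, Lefty1, Lefty2 and Inhbb probe 1 the first 30 bases are printed. Inhbb probe 1 is the brighter of the pair.
Nodal, chr10:60942629-60942688, plus strand: ttattagattataaacgagccatttggttc
Gdf3, chr6:122643573-122643632, minus strand: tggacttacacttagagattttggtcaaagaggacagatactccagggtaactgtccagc
Inhba, chr13:15394279-15394338, plus strand: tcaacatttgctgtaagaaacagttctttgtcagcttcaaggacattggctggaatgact
Inhbb probe 1, chr1:119276025-119276084, minus strand: cataataacttaaaaccaaagaattttccc
Inhbb probe 2, chr1:119278359-119278418, minus strand: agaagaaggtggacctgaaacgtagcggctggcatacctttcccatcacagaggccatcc
Tdgf1, chr9:110638452-110638511, minus strand: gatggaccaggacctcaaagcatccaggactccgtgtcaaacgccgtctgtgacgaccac
Lefty1, chr1:180917655-180917714, plus strand: ctttcatgcaaatctgaagtgctcattata
Lefty2, chr1:180877495-180877554, plus strand: ttgtcctaacttagtgctctcgtcagacct
Fst, chr13:111626922-111627594, minus strand: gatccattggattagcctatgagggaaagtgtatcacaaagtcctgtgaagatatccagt

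The Fst probe spans 673 bases of the genome, 613 more than its length, so its position in the file covers a gap. The Inhbb probes start 2334 bases apart, and probe 1 is the one further 3′ on the minus strand. The Lefty2 and Lefty1 probes start 40160 bases apart on the same chromosome and strand. Over all 36 pairs of these 9 probes the longest run of bases shared was 7, so the probes of the paralogues Lefty1 and Lefty2 do not overlap in sequence. Their place in exons or UTRs was not analysed here.

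Levels are log2 of the processed signal minus log2 of the array's 75th percentile, so that 0 is that percentile and a step of 1 is a 2-fold change. Of all spots, 63.4% were well above background on the PM2i-iPSC array, 66.3% on the OM2i-iPSC array, 66.9% on the ES array and 72.8% on the MEF array. Repeat spots of a probe on the same array had an SD of 0.14 to 0.22, and 95% of pairs of such spots are expected to lie within 0.53 of each other. That limit leaves out the spread between cultures. PM2i-iPSC and ES lay on slide 1, OM2i-iPSC on slide 2 and MEF on slide 3 with another scan day and an older software version. Slide and group therefore cannot be told apart in any comparison with OM2i-iPSC or MEF, and only PM2i-iPSC against ES lies within 1 slide.

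Markers matched the labels in the main. Of 8 pluripotent cell markers found, 7 were at least 2-fold higher in PM2i-iPSC, 7 in OM2i-iPSC and 8 in ES, each against MEF. Of 10 fibroblast markers, 10 were at least 2-fold lower in PM2i-iPSC, 9 in OM2i-iPSC and 10 in ES, each against MEF. Of 5 pluripotent markers with a fold, none was 2-fold away from ES in either preparation by its brightest probe. Of all genes, 26.2% were in PM2i-iPSC and 35.1% in OM2i-iPSC. All 5 were still lower than ES in OM2i-iPSC, past the spread of spots, by log2 differences from -0.69 (Esrrb) to -0.99 (Pou5f1). Their median was -0.84 there and -0.41 in PM2i-iPSC, beside 0.04 and -0.04 over all genes. The other probe of Zfp42 was just past 2-fold lower in OM2i-iPSC. That of Sall4 was higher than ES by 1.21 in PM2i-iPSC and 2.22 in OM2i-iPSC. The summed signal of the 8 pluripotent markers was 92.8, 82.4, 112 and 1.43 times the 75th percentile in PM2i-iPSC, OM2i-iPSC, ES and MEF. Nanog, Sall4 and Dppa5a were saturated on every pluripotent array, as was Esrrb in PM2i-iPSC. These spots made up most of the sums there, so the sums give no order among the pluripotent arrays.

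**Figure D1:**
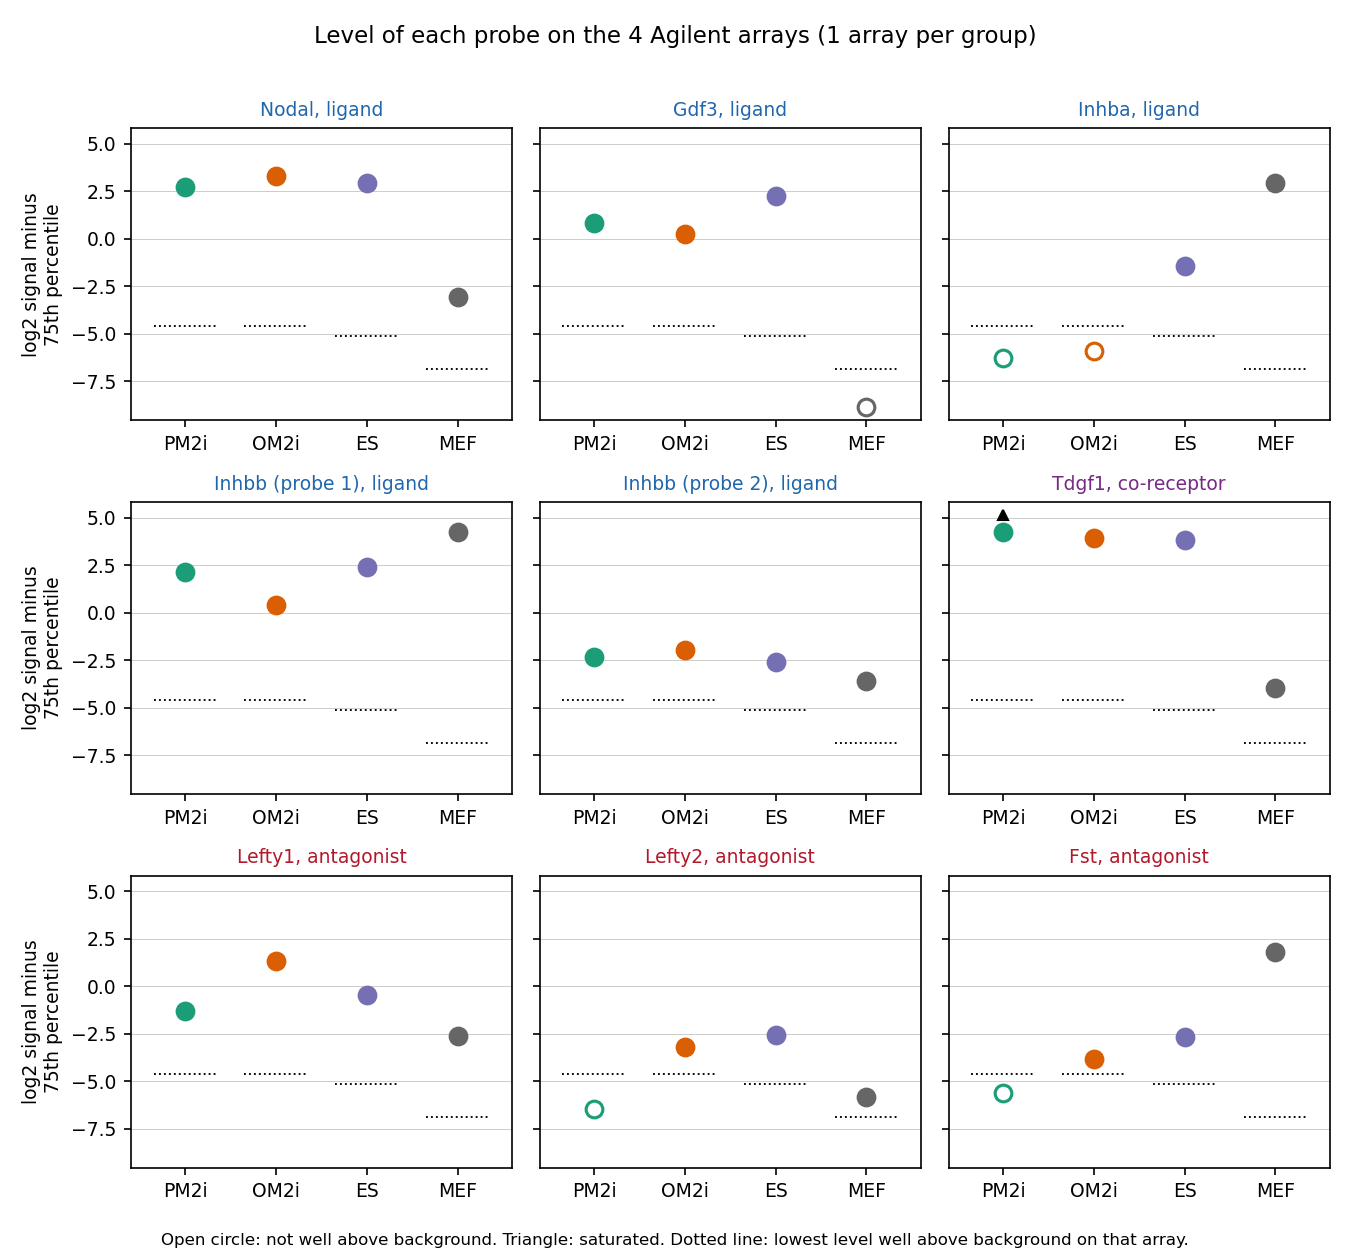
Level of each of the 9 probes (vertical axis, log2 processed signal minus the array's 75th percentile) on the PM2i-iPSC, OM2i-iPSC, ES and MEF arrays, with 1 point per array and no error bar since each group is 1 array. Nodal, Gdf3 and Tdgf1 are high on the 3 pluripotent arrays, Inhba and Fst are high on the MEF array, Lefty1 is highest on the OM2i-iPSC array, and the Inhbb probes differ in their order.

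Nodal, the ligand that gives the pathway its name, was high in all 3 pluripotent samples and close to the same in them. Its level was 2.71 in PM2i-iPSC, 3.29 in OM2i-iPSC, 2.95 in ES and -3.06 in MEF. The processed signals behind these levels were 23135 ± 2314, 33765 ± 3377, 24343 ± 2434 and 225 ± 22.8 fluorescence units (± the error that the scanner software gives for the spot). The 3 pluripotent arrays stand far above MEF and near one another. Nodal exceeded MEF 54.6-fold in PM2i-iPSC, 81.3-fold in OM2i-iPSC and 64.2-fold in ES. Against ES the log2 difference was -0.23 in PM2i-iPSC and 0.34 in OM2i-iPSC, both within the spread of spots. Between the preparations it was -0.57 (PM2i-iPSC minus OM2i-iPSC), just past that spread and under 2-fold.

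Gdf3, a Vg1-related ligand that uses the same co-receptor, was lower in both preparations than in ES. Its level was 0.82 in PM2i-iPSC, 0.27 in OM2i-iPSC, 2.26 in ES and -8.85 in MEF, where it was not well above background. All 3 pluripotent arrays are far above MEF, with ES the highest. Relative to ES, Gdf3 was lower by 2.72-fold in PM2i-iPSC and by 3.98-fold in OM2i-iPSC. It exceeded MEF by at least 203-fold, 139-fold and 552-fold in PM2i-iPSC, OM2i-iPSC and ES. These bounds depend on how the background is handled, and with normexp, a model-based background correction, they were 42.2-fold, 32.6-fold and 130.3-fold. The preparations differed from each other by 0.55, barely past the spread of spots.

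Inhba, which encodes the beta A subunit of activin A, had the opposite pattern. Its level was -6.28 in PM2i-iPSC and -5.89 in OM2i-iPSC, neither well above background, against -1.42 in ES and 2.93 in MEF. It was thus below the detection limit in both preparations, intermediate in ES and high in MEF. Relative to MEF, Inhba was lower by at least 184-fold in PM2i-iPSC, by at least 186-fold in OM2i-iPSC and by 20.5-fold in ES, and the PM2i-iPSC bound was 120.1-fold with normexp. Relative to ES it was lower by at least 8.99-fold in PM2i-iPSC and by at least 9.08-fold in OM2i-iPSC. No fold can be given between the preparations.

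Inhbb, which encodes the beta B subunit of activin B, gave answers that depended on the probe. Probe 1 read 2.15 in PM2i-iPSC, 0.41 in OM2i-iPSC, 2.41 in ES and 4.23 in MEF, and probe 2 read -2.31, -1.97, -2.61 and -3.58 on the same arrays. Probe 1 was highest in MEF and lowest in OM2i-iPSC, and probe 2 was lowest in MEF and highest in OM2i-iPSC. Against MEF, probe 1 was lower by 4.24-fold in PM2i-iPSC, by 14.2-fold in OM2i-iPSC and by 3.53-fold in ES, whereas probe 2 was higher by 2.41-fold, 3.05-fold and 1.96-fold. Against ES, the log2 difference of probe 1 was -0.26 in PM2i-iPSC and -2.00 in OM2i-iPSC. That of probe 2 was 0.29 in PM2i-iPSC, with 0.64 in OM2i-iPSC. Both probes were well above background on all 4 arrays, so no direction is given here for Inhbb as a gene. Its counts below rest on probe 1, the brighter.

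Tdgf1, the co-receptor for Nodal and Gdf3, was high in all 3 pluripotent samples. Its level was 4.21 in PM2i-iPSC, where the spot was saturated, 3.92 in OM2i-iPSC, 3.79 in ES and -3.98 in MEF. Tdgf1 exceeded MEF by at least 293-fold in PM2i-iPSC, by 239.7-fold in OM2i-iPSC and by 219-fold in ES, and the PM2i-iPSC bound was 184-fold with normexp. OM2i-iPSC exceeded ES by 0.13, within the spread of spots. Saturation leaves PM2i-iPSC with a lower bound of 0.42 above ES, so a larger difference cannot be seen on this array.

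Lefty1, the Nodal antagonist expressed in pluripotent cells and on the left of the midline, separated the preparations. Its level was -1.29 in PM2i-iPSC, 1.34 in OM2i-iPSC, -0.46 in ES and -2.63 in MEF. The processed signals were 1447 ± 150.3, 8776 ± 878, 2296 ± 231 and 302 ± 30.5 fluorescence units. OM2i-iPSC was the highest and PM2i-iPSC the lowest of the pluripotent arrays, with ES between them and MEF below all 3. Lefty1 exceeded MEF 2.54-fold in PM2i-iPSC, 15.7-fold in OM2i-iPSC and 4.51-fold in ES. With quantile normalization the PM2i-iPSC value was 1.85-fold, which is under 2-fold. Relative to ES it was lower by 1.77-fold in PM2i-iPSC and higher by 3.49-fold in OM2i-iPSC, both past the spread of spots. PM2i-iPSC was 6.19-fold lower than OM2i-iPSC, a log2 difference of -2.63.

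Lefty2, the neighbouring paralogue and likewise a Nodal antagonist, followed another order. Its level was -6.43 in PM2i-iPSC, where it was not well above background, -3.21 in OM2i-iPSC, -2.55 in ES and -5.82 in MEF. ES was the highest array and OM2i-iPSC next. Lefty2 exceeded MEF 6.13-fold in OM2i-iPSC and 9.68-fold in ES, which became 2.84-fold and 4.13-fold with normexp, and 2.93-fold and 5.48-fold with quantile normalization. No fold can be given for PM2i-iPSC, whose detection limit lies above the MEF level. Relative to ES it was lower by at least 4.11-fold in PM2i-iPSC and by 1.58-fold in OM2i-iPSC. PM2i-iPSC was at least 2.60-fold lower than OM2i-iPSC, the same direction as Lefty1.

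Fst, whose product follistatin binds and neutralises activins, had, like Inhba, its highest level in MEF and the next in ES. Its level was -5.61 in PM2i-iPSC, not well above background, -3.80 in OM2i-iPSC, -2.68 in ES and 1.79 in MEF. MEF was far above the pluripotent arrays. Relative to MEF, Fst was lower by at least 83.4-fold in PM2i-iPSC, by 48.4-fold in OM2i-iPSC and by 22.2-fold in ES. With normexp the PM2i-iPSC bound was 50.1-fold and the OM2i-iPSC value 30.7-fold. Relative to ES it was lower by at least 3.76-fold in PM2i-iPSC and by 2.18-fold in OM2i-iPSC, the last of which was 1.76-fold with normexp and thus under 2-fold. The bound between the preparations, at least 1.72-fold lower in PM2i-iPSC, does not reach 2-fold.

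Like Inhba and Fst, the 10 fibroblast markers as a sum were highest in MEF and next in ES. Their summed signal was 5.01, 5.34, 8.81 and 157 times the 75th percentile in PM2i-iPSC, OM2i-iPSC, ES and MEF, and 7, 7, 9 and 10 of the 10 were well above background. Of 9 with a fold against ES, 2 were at least 2-fold lower, 1 higher and 6 within 2-fold in PM2i-iPSC. In OM2i-iPSC 5 were lower, 1 higher and 3 within 2-fold. Of all genes, 11.7% were lower and 14.5% higher in PM2i-iPSC, and 14.0% and 21.2% in OM2i-iPSC. The widest marker was the mesenchymal transcription factor Prrx1, with a log2 difference from ES of at least -5.54 in PM2i-iPSC and of -3.99 in OM2i-iPSC, though not on all of its probes. The part of other cells in the levels of Inhba and Fst was not tested. In bulk samples, fewer cells of a type and less RNA per cell cannot be told apart.

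Counted together against MEF, members of both directions were found among the ligands and among the antagonists. Of the 4 ligands, 2 were higher by 2-fold or more and 2 lower in each of the 3 comparisons, and of the antagonists with a fold 1 was higher and 1 lower in PM2i-iPSC, with 2 higher and 1 lower in OM2i-iPSC and in ES. Over all members, 4 in PM2i-iPSC were at least 2-fold higher and 3 lower of 7 with a fold, where 37.3% of all genes were higher and 26.1% lower. In OM2i-iPSC 5 were higher and 3 lower of 8, where 39.7% of all genes were higher and 25.3% lower. In ES the split was also 5 and 3 of 8, where 36.2% of all genes were higher and 24.1% lower. Nodal, Gdf3, Tdgf1 and Lefty1 were the 4 that were higher in all 3, and Inhba, Fst and Inhbb by probe 1 were the 3 that were lower in all 3. Lefty1 leaves the first group in PM2i-iPSC with quantile normalization, and Inhbb was higher than MEF by probe 2. These comparisons share the MEF array. Over the 7 members with a fold in all 3 comparisons, the median log2 difference was 1.35, 3.98 and 2.17 in PM2i-iPSC, OM2i-iPSC and ES, and that of all genes with a fold or a bound was 0.25, 0.36 and 0.27. The median of the members is Lefty1's own value each time. Since members lay both above and below MEF, it describes no shift of the group. The share of all genes at least 2-fold apart from MEF either way was 63.4%, 64.9% and 60.3%. With Inhbb taken by probe 2, 7 of 7, 8 of 8 and 7 of 8 members were, and with the median over its probes 6, 8 and 7.

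Against ES, no member was at least 2-fold higher in PM2i-iPSC and 4 of 8 were lower (Gdf3, Inhba, Lefty2 and Fst), where 14.5% of all genes were higher and 11.7% lower, 26.2% in all. In OM2i-iPSC 1 of 8 was higher (Lefty1) and 4 were lower (Gdf3, Inhba, Fst and Inhbb by probe 1), where 21.2% of all genes were higher and 14.0% lower, 35.1% in all. Gdf3, Inhba and Fst were lower in both, although Fst in OM2i-iPSC fell short of 2-fold with normexp (-0.82), which left 3 members lower there. The comparisons share the ES array. The median of the members was -1.13 in PM2i-iPSC and -0.89 in OM2i-iPSC, beside -0.04 and 0.04 over all genes. By role, the median was -0.85 in PM2i-iPSC and -2.00 in OM2i-iPSC for the 4 ligands, and it was -1.91 and -0.66 for the 3 antagonists. Each antagonist median is 1 gene, Fst as a bound in PM2i-iPSC and Lefty2 in OM2i-iPSC. The ligand medians rest on the Inhbb probe, and with probe 2 they were -0.84 in PM2i-iPSC against -0.83 in OM2i-iPSC. The median of all members in OM2i-iPSC was -0.27 with that probe. The co-receptor read 0.42 as a bound in PM2i-iPSC and 0.13 in OM2i-iPSC.

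**Figure D2:**
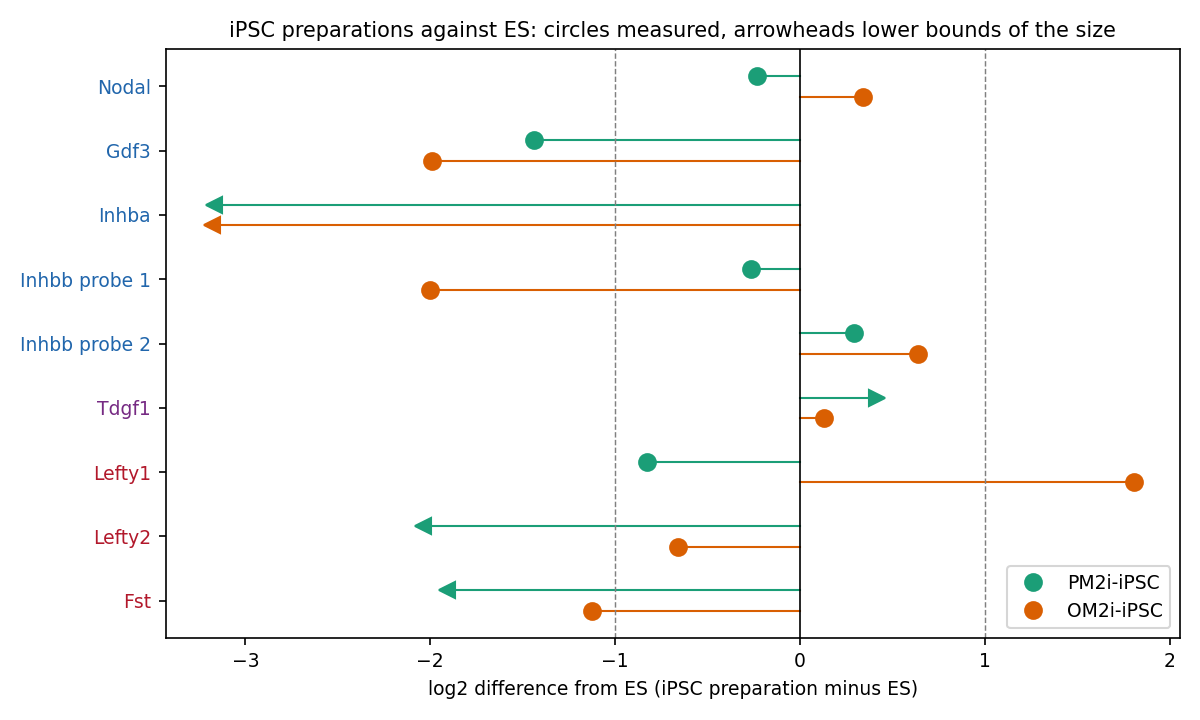
Log2 difference from ES (horizontal axis) of each probe in PM2i-iPSC and OM2i-iPSC, from 1 array per group, where circles are measured, arrowheads are lower bounds of the size and dashed lines mark 2-fold. Lefty1 lies on opposite sides of ES, at -0.83 in PM2i-iPSC and 1.80 in OM2i-iPSC, while Gdf3, Inhba and Fst lie below ES in both.

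Between the preparations, 1 of 7 members with a fold was at least 2-fold higher in PM2i-iPSC (Inhbb by probe 1, 3.34-fold, with -0.34 on the log2 scale by probe 2) and 2 were lower (Lefty1 and Lefty2). Over all genes 12.7% were higher and 17.3% lower. Nodal and Gdf3 were within 2-fold, and Tdgf1 and Fst gave bounds under 2-fold. The Lefty1 difference of -2.63 lay at percentile 1.83 of all genes with a fold or a bound. The median of the members was -0.57, which is the value of Nodal, beside -0.09 over all genes.

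**Figure D3:**
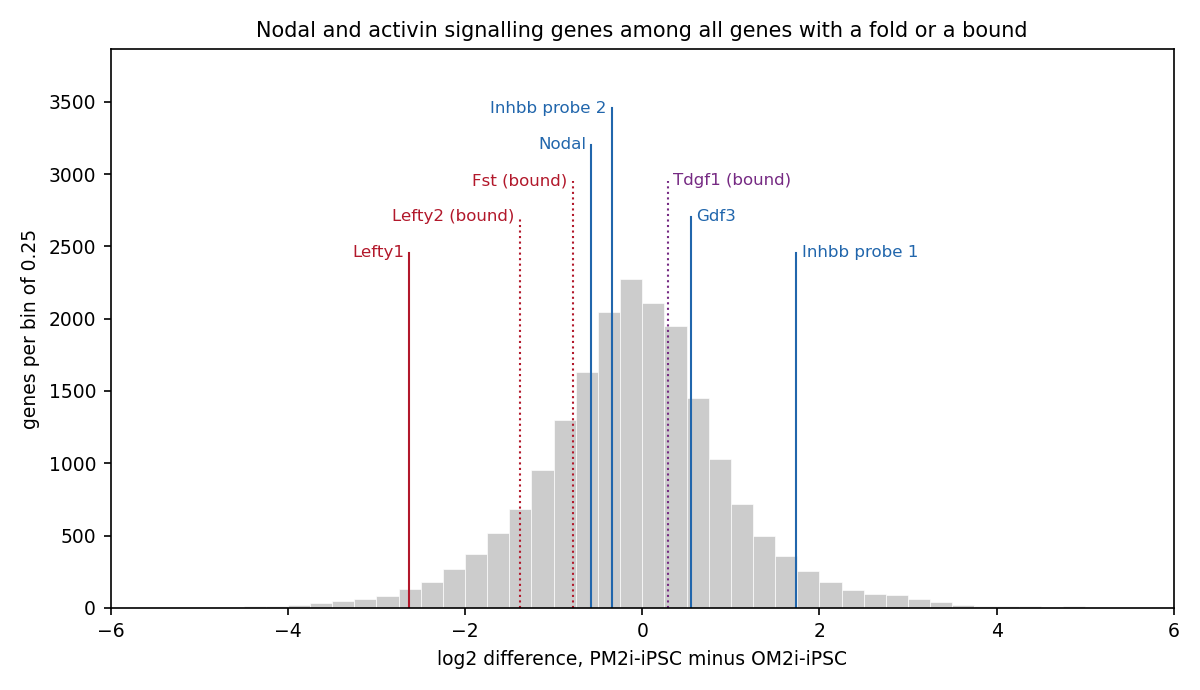
Number of genes (vertical axis) by log2 difference of PM2i-iPSC minus OM2i-iPSC (horizontal axis, bins of 0.25), with the members marked by lines whose heights carry no value and which are dotted where only a bound can be given. Lefty1 at -2.63 is in the lower tail, Inhbb probe 1 at 1.74 is in the upper part, and Nodal at -0.57 is near the centre.

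Changes of members relative to one another do not depend on a scaling that shifts a whole array by 1 factor. A difference of 2 such changes of up to 0.75 lies within the spread of spots. Relative to Nodal, Lefty1 was 4.16-fold lower in PM2i-iPSC than in OM2i-iPSC (-2.06 on the log2 scale). Relative to Nodal, Lefty1 was 2.76-fold higher in OM2i-iPSC than in ES, and the change of -0.59 in PM2i-iPSC against ES was within the spread, though just past it with normexp, at -0.77. The antagonist thus varied among the pluripotent arrays where its ligand did so much less. Gdf3 changed by -1.21 in PM2i-iPSC and by -2.33 in OM2i-iPSC relative to Nodal, each against ES. Tdgf1 and Nodal kept their ratio in OM2i-iPSC against ES within the spread, at -0.21.

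The Lefty paralogues did not change alike in OM2i-iPSC. In OM2i-iPSC against ES, Lefty1 gained 2.46 on Lefty2, which is 5.52-fold. In ES against MEF the difference between them was -1.10 (Lefty1 minus Lefty2), but it was -0.71 with quantile normalization and 0.01 with normexp, both within the spread, so no order is given there. Among the activin genes, Fst and Inhba differed between ES and MEF by nearly the same amount, with a relative change of -0.12 that is within the spread, so the binding protein and its ligand subunit were both lower in ES to a similar degree. Inhbb by probe 1 was also lower in ES than in MEF, but less so than Inhba, with a gap of 2.53. By probe 2 Inhbb was higher in ES than in MEF (0.97), so its gap of 5.33 to Inhba lies between opposite directions.

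The rest of the pathway was described with 5 lists that hold 59 distinct genes on the array, the members included. Among 13 ligands and processing enzymes, 1 of 10 with a fold was at least 2-fold higher than ES and 4 lower in PM2i-iPSC, and in OM2i-iPSC 1 of 11 was higher and 4 lower. The shares of all genes were 14.5% higher and 11.7% lower in PM2i-iPSC, and 21.2% and 14.0% in OM2i-iPSC. Over the 10 genes with a fold in both, the medians were -0.78 and -0.16, beside the -0.04 and 0.04 of all genes given above. The activin relative Gdf11 was higher than ES by 1.52 in PM2i-iPSC. Inhbe, an activin subunit gene known from liver, was higher than ES by at least 3.15 in OM2i-iPSC and not well above background in PM2i-iPSC or ES. Pcsk6, a convertase that cleaves the Nodal precursor, differed from ES by -0.82 in PM2i-iPSC and -2.20 in OM2i-iPSC. Its other probe went the opposite way in PM2i-iPSC against ES, at 2.03, and had no fold in OM2i-iPSC against ES.

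Of 9 receptors and co-receptors, 2 of 8 with a fold were higher than ES and none lower in PM2i-iPSC, while 2 were higher and 1 lower in OM2i-iPSC. Among all genes 14.5% were higher and 11.7% lower in PM2i-iPSC, and 21.2% and 14.0% in OM2i-iPSC. Cfc1, which encodes the other EGF-CFC co-receptor (Cryptic), was higher than ES by 1.84 in PM2i-iPSC and 3.14 in OM2i-iPSC. The type II activin receptor gene Acvr2a was higher than ES by at least 2.36 and 2.76, although its other probe went the opposite way against MEF. Tgfbr2, the type II TGF-beta receptor gene, was 0.79 above ES in PM2i-iPSC and -2.00 from ES in OM2i-iPSC. The type I receptor gene Acvr1b stayed within 2-fold of ES, at -0.51 and -0.67.

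Of 10 extracellular and receptor-level antagonists, none of 8 with a fold was higher than ES and 2 were lower in PM2i-iPSC, while 1 was higher and 1 lower in OM2i-iPSC. The shares of all genes were 14.5% higher and 11.7% lower in PM2i-iPSC, and 21.2% and 14.0% in OM2i-iPSC. All antagonists 2-fold away from ES are members (Lefty2 and Fst in PM2i-iPSC, Lefty1 and Fst in OM2i-iPSC), while the pseudoreceptor gene Bambi read -0.89 and -0.39. Cer1, which encodes the Nodal and BMP inhibitor Cerberus, was not well above background on any of the 4 arrays.

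Among 15 Smads, partners and intracellular regulators, 3 were higher than ES and 5 lower in PM2i-iPSC, while 2 were higher and 5 lower in OM2i-iPSC. Among all genes 14.5% were higher and 11.7% lower in PM2i-iPSC, and 21.2% and 14.0% in OM2i-iPSC. The widest from ES in PM2i-iPSC were Wwtr1 at 1.59 and Smurf2 at -1.88, Smurf2 not on all of its probes. Foxh1, the forkhead partner of activated Smads at Nodal targets, was 1.33 above ES in PM2i-iPSC and at least 2.37 above it in OM2i-iPSC. By its 1 probe the Foxh1 level in MEF was 3.73, above the 3.47 of PM2i-iPSC and the 2.14 of ES. Smad7, the inhibitory Smad, differed from ES by -0.54 in PM2i-iPSC and -1.84 in OM2i-iPSC. Tgif1, a repressor of Smad-dependent transcription, differed by -1.19 and -1.83. Against MEF, the effector Smad3 was lower by a similar amount on all 3 pluripotent arrays, at -4.67, -4.23 and -4.51, and its other probe was lower too.

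Of 13 genes listed as mesendoderm targets of the pathway, Otx2, Wnt3 and Fgf5 exceeded ES by 2-fold or more in OM2i-iPSC, and most of the list had no fold. In PM2i-iPSC none of 4 with a fold was 2-fold away from ES, where 26.2% of all genes were. In OM2i-iPSC 3 of 6 with a fold were higher and none was lower, where 21.2% of all genes were higher, and Wnt3 and Fgf5 have a fold through their detection in OM2i-iPSC. Over the 4 genes with a fold in both (Eomes, Lhx1, Sox17 and Otx2), the medians were 0.20 in PM2i-iPSC and 0.69 in OM2i-iPSC. PM2i-iPSC against OM2i-iPSC gave none higher, 3 lower and 2 within 2-fold of 5 with a fold. Among all genes 12.7% were higher and 17.3% lower there.

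The 3 genes were the same in both comparisons with OM2i-iPSC. These share the OM2i-iPSC array, and Wnt3 and Fgf5 have a fold in both only through it, so the recurrence is no separate support. Otx2, a homeobox gene of epiblast and anterior neural tissue, had a level of -2.31 in PM2i-iPSC, -0.43 in OM2i-iPSC and -2.26 in ES. Wnt3, a ligand needed for the primitive streak, was well above background in OM2i-iPSC but not in PM2i-iPSC or ES, at -2.04. Fgf5, a marker of the primed epiblast, likewise passed background in OM2i-iPSC and not in those, at -3.53. The levels of all 3 were highest in OM2i-iPSC, and Eomes, also of this list, lay at 0.17 from ES in PM2i-iPSC and at -0.56 in OM2i-iPSC. The streak genes T and Mixl1 and the endoderm gene Foxa2 were not well above background on any array.

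The trophoblast markers Cdx2 and Hand1 were also higher in OM2i-iPSC than in ES, by 3.46 and 2.01 as log2 differences. They were 2 of 5 trophoblast markers with a fold, where 21.2% of all genes were higher, and the other 3 stayed within 2-fold (Gata3 at 0.14, Tfap2c at -0.70 and Krt7 at -0.10). In PM2i-iPSC none of the 5 exceeded ES by 2-fold. The summed signal of the 6 on the array was 13.4, 14.8, 18.8 and 3.98 times the 75th percentile in PM2i-iPSC, OM2i-iPSC, ES and MEF, and Elf5 was not well above background on any. On the pluripotent arrays Tfap2c and Krt7 made up most of that sum. Cdx2, at levels of -3.25, 0.41 and -3.05 in PM2i-iPSC, OM2i-iPSC and ES, added little to it. For 7 primitive endoderm markers the sums were 22.9, 19.2, 23.3 and 31.2, and none of 4 with a fold was at least 2-fold higher than ES in either preparation. Most of each sum was Gata6, at levels of 4.30, 4.09, 4.32 and 4.50 and saturated on every pluripotent array. Its other probes were higher than MEF on those arrays, unlike this one. These sums therefore say little about the other markers. OM2i-iPSC was also alone on its slide. The part of other cell types in the OM2i-iPSC values of Lefty1, Otx2, Wnt3 and Fgf5 was not tested.

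**Figure D4:**
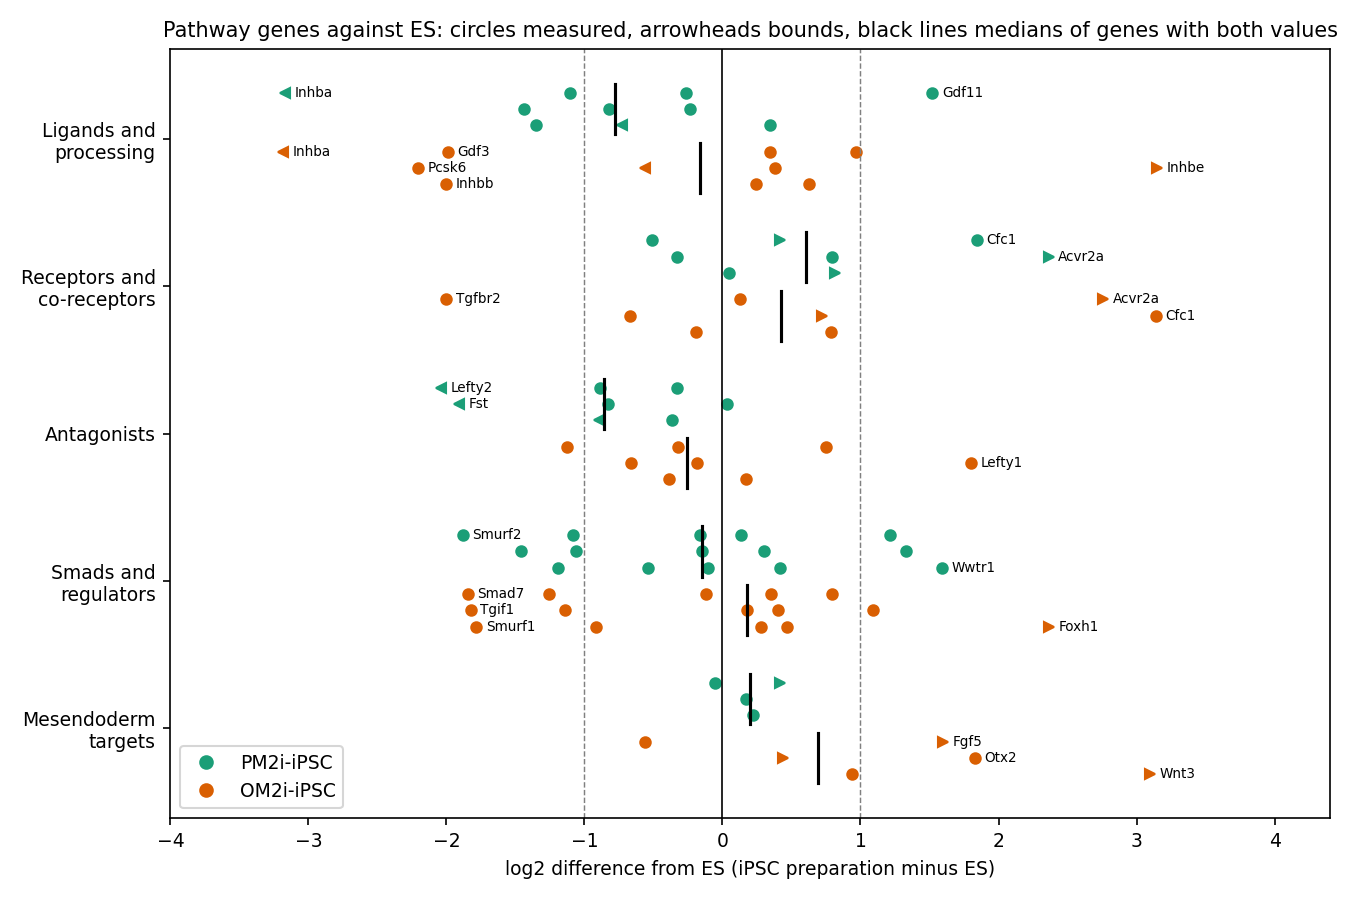
Log2 difference from ES (horizontal axis) of the genes of the 5 pathway lists with a fold or a bound in PM2i-iPSC and OM2i-iPSC, from 1 array per group, with circles measured, arrowheads bounds, black lines the medians over genes of a list with a value in both preparations, dashed lines at 2-fold and vertical offsets for legibility only. The 4 genes of the mesendoderm list with both values have medians of 0.20 in PM2i-iPSC and 0.69 in OM2i-iPSC. Named are genes at least 1.5 from ES.

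To describe each member's pattern by other genes, levels were centred on each gene's mean over the 4 arrays and compared by the root mean square difference, among genes well above background on the same arrays. The nearest to Nodal, of 12298 candidates, were Actl10 (0.15), Srrm3 (0.15) and Gcat (0.17). The nearest to Tdgf1 was the pluripotency regulator Nanog (0.18), which was saturated on the 3 pluripotent arrays, followed by Syngr1 (0.20) and Mrgpre (0.23). Lefty1 was nearest to Gadd45gip1 (0.10), Gar1 (0.16) and Naa60 (0.18), and Inhbb by probe 1 to Glrx (0.17), Ubr2 (0.20) and Id4 (0.20). Each likeness rests on 4 arrays and describes them only.

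Fewer candidates met the detection pattern of the other members. Of 466 such genes, Gdf3 was nearest to Ildr1 (0.31), Slc15a2 (0.37) and Dppa4 (0.48), the last an early pluripotency marker. Of 244, Inhba was nearest to Usp18 (0.44), Serpinb2 (0.47) and Glipr1 (0.70). Of 487, Lefty2 was nearest to Mettl8 (0.18), Kcnip4 (0.21) and Akr1c13 (0.25), and Fst to Six2 (0.17), Ankrd1 (0.18) and Trim30a (0.29). Levels not well above background carry no order, so these likenesses rest mainly on the arrays where the member was detected.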

How the data were processed

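Per the file headers, the authors extracted spot intensity with Agilent Feature Extraction 10.7.3.1 for PM2i-iPSC, OM2i-iPSC and ES and 9.5.3.1 for MEF, with background subtracted. The MEF header also lists detrending, and whether the other arrays had it is not given in their headers. In the deposited series table the intensity is linear and uncentred, within 0.498% of that in the scanner files (column medians 493, 522, 414 and 165 for PM2i-iPSC, OM2i-iPSC, ES and MEF).

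After removal of control spots and outlier flags, repeat spots were averaged and log2 intensity was set against the array's 75th percentile (3531, 3461, 3160 and 1877 for PM2i-iPSC, OM2i-iPSC, ES and MEF). Probe names came from RefSeq through the accession (22951 of 41174), the symbol (6659) or a former symbol (3109), and 8455 probes kept their own. The brightest probe stood for a gene with several (8870 genes). Where a dimmer side was not well above background, its own level or the detection limit of its array (147, 142, 90.1 and 16.3 units in the same order), whichever was higher, gave an "at least" bound, as did a saturated brighter side. A gene was counted at 2-fold or more. No test was made, since each group is 1 array.

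By the naming rule, all members with all probes could be named, with 3 genes for each by likeness. Pathway lists were open for their widest genes per comparison (up to 4 per direction) and up to 2 within 2-fold. Marker lists were open for up to 3. Not every gene that this rule allowed is named, and Gdf1, Skil and Smurf1 are among those left out. Outside this rule, Cer1, T, Mixl1, Foxa2 and Elf5, and markers past the 3 per list, were chosen after they were seen. So were values within 2-fold such as those of Bambi, Eomes, Acvr1b, Pcsk6, Smad7 and Tgfbr2. The members and lists were chosen with earlier results of these data known. A gene of the mesendoderm list is not reported here and was left out of its counts. Probe sequences and positions come from the MEF file, whose grid build is mm7 (mm8 for the others). Scripts used Python 3.11.15, pandas 2.3.3, numpy 2.4.6 and limma 3.58.1, and were checked on simulated data. The planned normexp correction (offset 50) ran on median signals, since mean signals are absent from 3 of the 4 files as read here. The other Inhbb probe, and medians over genes with a fold in every comparison set side by side, were added after the data were seen.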

Additional observations from a re-analysis of the deposited data

Results flagged for a closer look

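Lefty1 lay on opposite sides of ES in the iPSC preparations. Its log2 difference from ES was -0.83 in PM2i-iPSC and 1.80 in OM2i-iPSC. Each was wider than the spread between spots of a probe. Both values share the ES array, each group is 1 array, and the difference between them was not tested.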

How the results depend on the processing

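Member values were recomputed under 7 other settings, which gave 322 values. Of the values at least 2-fold apart, 5 changed direction, all of them Inhbb with its other probe: 1.27 in PM2i-iPSC, 1.61 in OM2i-iPSC and 0.97 in ES against MEF, 0.64 in OM2i-iPSC against ES, and -0.34 in PM2i-iPSC against OM2i-iPSC. In PM2i-iPSC against ES, where Inhbb was within 2-fold at -0.26, the sign also turned, to 0.29 with the other probe and to 0.01 with the median over probes. The other probe reads another stretch of the gene, and the cause was not tested. Counts of members at least 2-fold apart stayed within 1.5 times under all 7 settings, as did those of the pathway lists under quantile normalization and the median over probes. Lefty1 ranged over -0.97 to -0.80 in PM2i-iPSC and 1.77 to 1.96 in OM2i-iPSC against ES, and over -2.82 to -2.61 between them. In PM2i-iPSC against MEF it was 0.88 under quantile normalization, less than 2-fold, and Fst in OM2i-iPSC against ES was -0.82 under normexp. Of the 24 genes named as most like a member, 15 were kept under quantile normalization. Scaling to the median of detected probes moved the median of all genes against MEF to 0.01 in PM2i-iPSC, 0.11 in OM2i-iPSC and -0.00 in ES, and no count of members changed with it. Of 46 member values, 19 moved by more than the SD of a log2 difference between 2 spots (0.27) under quantile normalization, 19 under normexp, 12 without the filter on dim probes (where no bounds are set) and 6 with the median over probes. No paired analysis was possible because each group is 1 array. The number of arrays limits the precision, and signal over background limits Inhba in both preparations and Lefty2 and Fst in PM2i-iPSC.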
